A study of Capra hircus with 20 samples.

Results

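Antisense long noncoding RNAs (lncRNAs) are transcribed from the strand opposite an annotated gene, and the 48 described here are the more abundant ones among those that the study assembled from its own reads. They were chosen by type and by level, as the newly assembled lncRNAs typed as antisense whose mean over the 20 libraries was at least 1 FPKM (fragments scaled by the length of the transcript and the mapped reads of the library). The mean FPKM therefore chose them, and it is given only as a description. They came from 872 antisense lncRNAs, which were part of 12519 newly assembled lncRNAs and of 57378 transcripts in all, and they belonged to 45 gene IDs of the assembly. Because the same mean of 1 FPKM decided which transcripts were tested, all 48 passed that filter. Their mean over the 5 libraries of a group was at least 1 FPKM in all 4 groups for 23 of them, in 3 groups for 8, in 2 groups for 15 and in 1 group for 2. Some therefore passed through the groups in which they were high.

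The study compared intramuscular with subcutaneous fat cells of the goat as preadipocytes, the committed precursors of fat cells, and after they had been induced to become adipocytes. Cells were released with collagenase from the longissimus dorsi muscle and from the subcutaneous fat of male Jianzhou Daer goats 7 days old, and were grown in culture to the third passage. IMPA were intramuscular preadipocytes and SPA subcutaneous preadipocytes, both collected on day 0. IMA and SA were intramuscular and subcutaneous adipocytes, collected after 3 days in medium with oleic acid, which induces the storage of fat. Each of the 4 groups had 5 libraries of total RNA depleted of ribosomal RNA. All values with ± are a mean and SD over the 5 libraries of a group unless stated otherwise. The sources tie no library to an animal, so the p-values below measure the spread between these samples.

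An antisense RNA can pair with the RNA of the gene it lies across, can recruit enzymes that modify chromatin at its own locus, or can hinder transcription of the opposite strand by the act of being transcribed. Many are kept low because the nuclear RNA exosome, a complex that degrades RNA, removes them soon after they are made. In fat tissue, antisense transcripts have been described at loci of regulators of fat cell differentiation, where they can either stabilise or repress the sense RNA.

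The libraries were made with a strand-specific (dUTP) protocol, but the sources do not state whether the strand was used when FPKM was calculated, so reads of an antisense lncRNA and of the gene it overlaps may not have been kept apart. The deposited tables hold no coordinates for the newly assembled lncRNAs and no counts, so no position, sequence or counting error can be given for them. Summed over all transcripts, a library held from 527426 to 596669 FPKM. The number of the 872 antisense lncRNAs above 0 was 625.6 ± 10.6 in IMPA, 581 ± 29.1 in IMA, 553.4 ± 16.4 in SPA and 533 ± 15.6 in SA. The share of reads that the authors mapped was higher in every preadipocyte library than in every adipocyte library of the same depot. It was also higher in every IMPA than in every SPA library and in every IMA than in every SA library, so its part cannot be told apart from that of the stage or the depot.

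Marker genes were summed in each library to check the labels. Of 9 adipocyte markers, 8 were found by symbol, all but FABP4, with CEBPA, a transcription factor of fat cell differentiation, the most abundant over the 20 libraries. Their summed level was 11.7 ± 0.296 FPKM in IMPA, 7.73 ± 0.619 in IMA, 11.4 ± 0.555 in SPA and 11.2 ± 0.841 in SA. PPARG, the main regulator of fat cell differentiation, was at 0.475 ± 0.0986, 0.364 ± 0.108, 0.624 ± 0.131 and 1.03 ± 0.252 FPKM in these groups, ADIPOQ did not exceed 0.596 FPKM in any library, and the hormone gene LEP was listed at 0 in all 5 SA libraries. The sum, in which CEBPA and, in the subcutaneous groups, CIDEC weigh most, was on average no higher in the libraries labelled adipocytes than in those labelled preadipocytes of either depot. Single markers differed from it: from SPA to SA, PPARG was higher on average, as were LPL, from 0.549 ± 0.0395 to 1.34 ± 0.271 FPKM, and PLIN1, from 0.128 ± 0.0384 to 0.245 ± 0.0850. From IMPA to IMA, most of the fall of the sum was that of CEBPA, from 9.23 ± 0.428 to 5.42 ± 0.628 FPKM.

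Skeletal muscle markers parted the depots. Of 11, 10 were found, and their sum was 3489 ± 232 FPKM in IMPA and 11559 ± 280.0 in IMA, against 10.2 ± 6.78 in SPA and 8.44 ± 0.628 in SA. SPA 1 stood apart at 22.3 FPKM, with the other 4 SPA libraries at 6.63 to 7.69. MYLPF, a myosin light chain gene, was the most abundant in the intramuscular and TNNT3, a troponin gene, in the subcutaneous groups. MYOG, a transcription factor of muscle differentiation, was at 649 ± 66.9 FPKM in IMPA and 736 ± 35.0 in IMA but under 1 FPKM on average in both subcutaneous groups. The 8 stroma markers, all found and led by COL1A2 in the intramuscular and DCN in the subcutaneous groups, summed to 2883 ± 155, 2876 ± 72.9, 8832 ± 194 and 7617 ± 215 FPKM in IMPA, IMA, SPA and SA, while the stroma marker DLK1 was at most 0.269 FPKM in any library. The 7 proliferation markers, all found and led by TOP2A, summed to 105.5 ± 10.1, 99.4 ± 6.85, 40.4 ± 3.13 and 189 ± 8.39 FPKM. All 5 endothelial markers, led by TEK in the intramuscular and VWF in the subcutaneous groups, summed to at most 1.19 FPKM in any library. All 5 immune markers, led by CD14, summed to 6.63 ± 1.70, 11.1 ± 1.09, 16.8 ± 1.05 and 14.5 ± 1.01 FPKM, with PTPRC at no more than 0.0107 FPKM. Between the depots, all of these sums differed without overlap on both days, but the adipocyte sum on day 3 only. Without overlap too, the adipocyte, muscle and immune sums differed between IMPA and IMA, and the stroma and proliferation sums between SPA and SA. Their part in the results was not tested. In these bulk samples, fewer cells of a type and less RNA per cell cannot be told apart.

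The abundance of the antisense lncRNAs was very uneven. LNC_010228 was the most abundant of all 57378 transcripts, with a mean over the 20 libraries of 144950 FPKM. LNC_006354 came at rank 40, with a mean of 1339 FPKM, and LNC_006486, LNC_012327, LNC_012448 and LNC_012318 lay at means of 121, 92.9, 68.5 and 68.3 FPKM, at ranks 421, 562, 830 and 835. These 6 were over 50 FPKM, 4 more lay between 5 and 50, and 38 between 1 and 5, of which 26 were under 2. The median of the 48 means was 1.63 FPKM, beside 0.20 over all 872 antisense lncRNAs and 4.52 over all 18414 tested transcripts. Of the 824 that were not chosen, 574 had a mean of 0.1 to 1 FPKM and 250 a lower one.

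LNC_010228 was listed at 151977, 153658, 153082, 155554 and 161569 FPKM in the 5 IMPA libraries and at 156408, 110594, 105238, 113838 and 121864 in the 5 IMA libraries. In SPA it was at 167539, 140847, 151240, 150617 and 149902 FPKM, and in SA at 128803, 154045, 157353, 157147 and 157727. All groups overlapped, and the IMA libraries other than IMA 1 lay below every library of the other 3 groups. The next most abundant transcript was between 19.4-fold (IMPA 3) and 47.3-fold (IMPA 5) lower, and in IMPA 3 that transcript was LNC_006354.

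As a percent of the FPKM sum of its library, LNC_010228 made up 27.2 ± 0.665 in IMPA, 22.3 ± 2.71 in IMA, 27.4 ± 1.14 in SPA and 26.2 ± 1.56 in SA. The IMA values were 26.9, 21.0, 20, 21.3 and 22.4%, so that IMA 1 alone lay within the range of the preadipocytes. IMA was lower than IMPA by a difference of -4.9 percentage points (two-sided exact permutation test, p = 0.0238, adjusted p = 0.0476 over the 8 tests of shares). Without any 1 library of these groups other than IMPA 1 and IMA 1, the adjusted p missed the threshold (-5.07 to -4.32 points, exact adjusted p of 0.0508 to 0.0952). Before adjustment, the exact p in these runs was 0.0238 to 0.0317. The adjusted p also moves with the other tests of shares. As a percent of lncRNA FPKM alone, the difference was -1.94 points (exact adjusted p = 0.181). The difference between IMA and SA, -3.94 points, missed the threshold after adjustment (exact p = 0.0317, adjusted p = 0.0508), and without IMA 1 it was -5.09 points and passed (exact adjusted p = 0.0423). Without any 1 other library of these groups it was -4.6 to -3.35 and missed it (exact adjusted p of 0.0508 to 0.114). No difference was detected between SA and SPA, at -1.18 points (exact p = 0.246), or between IMPA and SPA, at -0.209 points (exact p = 0.738). As a percent of lncRNA FPKM alone, the differences between IMPA and SPA and between IMA and SA were -2.67 and -3.19 points and passed (exact adjusted p = 0.0317 for both), and that between SA and SPA was -1.41 (exact adjusted p = 0.0508). With 5 libraries against 5, no exact p can be under 0.00794. In limma's test across all transcripts, LNC_010228 passed in none of the 4 comparisons (adjusted p = 0.0787 between IMA and IMPA), whereas a limma fit without the variance trend called it lower in IMA than in IMPA and in SA.

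All other antisense lncRNAs together, taken as a percent of the FPKM sum without LNC_010228, made up 0.884 ± 0.675 in IMPA, 0.285 ± 0.0306 in IMA, 0.366 ± 0.0702 in SPA and 0.378 ± 0.0796 in SA. The IMPA libraries held 0.937, 0.538, 2.03, 0.349 and 0.563% and the IMA libraries 0.339, 0.266, 0.275, 0.269 and 0.276%. These groups did not overlap, and the difference between IMA and IMPA was -0.599 points (exact permutation test, p = 0.00794, adjusted p = 0.0476). IMPA 3 carries much of its size, which was -0.312 without that library (exact adjusted p = 0.0635). IMPA was above SPA by 0.517 points (exact p = 0.0238, adjusted p = 0.0476), which fell to 0.231 without IMPA 3 (exact adjusted p = 0.0889). IMA was below SA with a difference of -0.0926 points (exact p = 0.0238, adjusted p = 0.0476), and without SA 5 it was -0.0574 (exact adjusted p = 0.0635). The first 2 differences passed only without IMPA 1 or IMPA 4 and the last only without IMA 1, SA 1 or SA 2, with exact adjusted p otherwise of 0.0508 to 0.114, 0.0508 to 0.229 and 0.0635 to 0.114. Before adjustment, the exact p in those other runs was 0.00794 to 0.0714, 0.0238 to 0.143 and 0.0317 to 0.0556. For the first difference it stayed at 0.00794 without IMPA 2, IMPA 3 or IMPA 5. SA and SPA differed by 0.0112 points, which was less than their spread (exact p = 0.571). Since LNC_006354 made up between 39.3% and 91.5% of this sum in a library, the sum mostly follows that transcript. Without it and LNC_010228, the antisense lncRNAs made up between 0.142% and 0.187% in each of the 20 libraries.

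**Figure D1:**
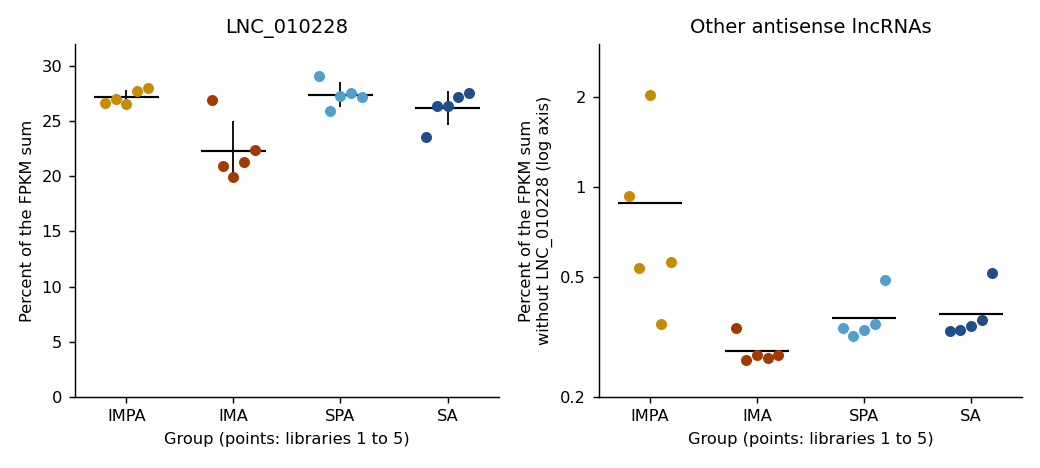
LNC_010228 as a percent of the FPKM sum of a library (left) and all other antisense lncRNAs as a percent of the FPKM sum without LNC_010228 (right, log axis), with 1 point per library in the groups IMPA, IMA, SPA and SA, lines at the group mean and, on the left, bars of 1 SD. IMA 1 lies at 26.9% on the left above the other 4 IMA libraries, and IMPA 3 at 2.03% on the right above all others.

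LNC_006354 was at 3290, 1612, 7873, 735 and 1565 FPKM in IMPA and at 778, 467, 457, 498 and 522 in IMA. In SPA it was at 802, 657, 745, 752 and 1332 FPKM, and in SA at 743, 759, 884, 876 and 1429. IMPA had by far the widest spread, and IMPA 4 lay below IMA 1, while the other 4 IMPA libraries lay above all 15 libraries of the other groups. LNC_006354 fell from IMPA to IMA by 2.02 on the log2 scale (SE 0.54, limma adjusted p = 0.0169), a call that was lost with the library-size covariate of Ballgown in an ordinary linear model (adjusted p = 0.24). With the mapped share as a covariate the direction turned, to 0.05 (limma adjusted p = 0.996). IMA was also below SA, with a log2 difference of -0.77 (limma adjusted p = 0.00973) and all 5 IMA values but that of IMA 1 below every SA value. That call was lost when all 4 groups were fitted together (limma adjusted p = 0.153) and with the mapped share (-0.48, limma adjusted p = 0.422).

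The next 4 in abundance showed smaller differences. LNC_006486 was at 99.3, 109, 105, 103 and 101 FPKM in IMPA and at 118, 135, 126, 123 and 122 in IMA, without overlap, and rose by 0.26 on the log2 scale (limma adjusted p = 8.0e-04). It lay between 117 and 136 FPKM in all subcutaneous libraries, so that IMPA was the low group. Its difference between IMPA and SPA was -0.28 (limma adjusted p = 1.5e-04), but -0.13 after scaling the libraries to equal upper quartiles (limma adjusted p = 0.0716).

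LNC_012327 was at 81.4, 65.9, 62.7, 67.3 and 76.8 FPKM in SPA and at 86.5, 95.9, 87.4, 74.1 and 102 in SA, with only SA 4 within the SPA range. It rose by 0.33 (limma adjusted p = 0.0343), a call that was lost under upper-quartile scaling (limma adjusted p = 0.103). It was also lost without any 1 of SPA 2, SPA 3, SPA 4, SA 1, SA 2, SA 3 and SA 5 (limma adjusted p of 0.0561 to 0.0793). LNC_012318 fell from 86.8 ± 28.1 FPKM in IMPA to 50.8 ± 9.74 in IMA, by 0.71 on the log2 scale (limma adjusted p = 0.0436). This call was lost without any 1 library of these groups other than IMPA 1 and IMA 1 (limma adjusted p of 0.0575 to 0.0968), and without IMPA 2, the highest at 125 FPKM, the log2 change was -0.57. LNC_012448 was called in none of the 4 comparisons and is described with the other transcripts of its gene ID.

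**Figure D2:**
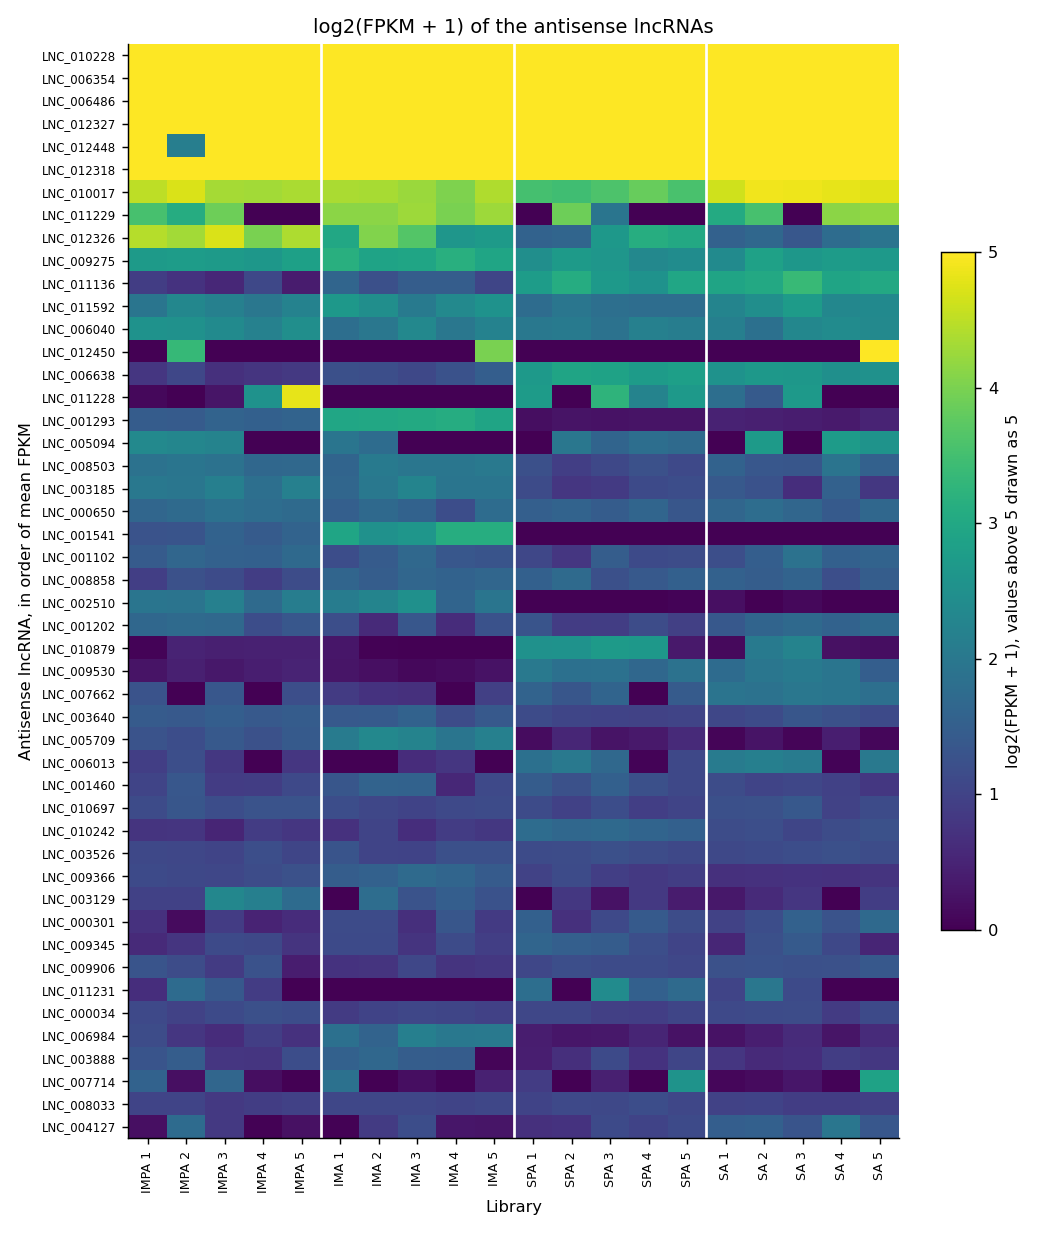
log2(FPKM + 1) of the 48 antisense lncRNAs (vertical, ordered by their mean over the 20 libraries) in the 20 libraries (horizontal, by group), with colours capped at 5. The 6 over 50 FPKM form the band at the top, where values above the cap are drawn alike and their differences cannot be seen. The differences between intramuscular and subcutaneous libraries that can be seen are therefore among those of lower level.

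Of the 48, 37 were above 0 in all 20 libraries and 11 (22.9%) were listed at 0 in at least 1 library. The same held for 2484 of all 18414 tested transcripts (13.5%), for 15 of the 515 with a mean of at least 100 FPKM (2.91%) and for none of 17 transcripts of 12 housekeeping genes. A value of 0 can therefore stand for a transcript that was not assigned reads in a library, and its depth is unknown. At the lower end of the range, the chosen LNC_004127, LNC_008033 and LNC_007714 had means of 1.01, 1.02 and 1.03 FPKM. Just below the threshold were LNC_012486 at 0.990, LNC_012076 at 0.937 and LNC_004736 at 0.933. LNC_012486 was at 19.8 FPKM in SPA 2 and listed at 0 in the other 19 libraries, whereas LNC_012076 was above 0 in all 20.

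The variance of log2(FPKM + 1) over the 20 libraries was divided into depot, stage, their interaction and the remainder within groups. For the 48, the median parts were 26.2%, 4.77%, 7.85% and 44.2%, beside 21.6%, 5.99%, 5.13% and 40.1% over all tested transcripts. The largest part lay within groups for 27 of the 48, in the depot for 16, in the interaction for 4 and in the stage for 1. In the same order, these numbers were 9061, 6407, 1509 and 1437 over all 18414 tested transcripts. The depot held the largest part for 33.3% of the 48 and 34.8% of all. Of the 48, 35 passed in at least 1 of the 4 pairwise comparisons and 13 in none, which included LNC_010228. LNC_006638 and LNC_001293 passed in all 4. No share over all tested transcripts is given for these counts, so they only describe the 48.

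The comparison of IMA with IMPA asks what differs between the intramuscular cells of day 3 and of day 0, labelled adipocytes and preadipocytes. The sum of the adipocyte markers, which lacks FABP4 and in which CEBPA weighs most, shows no gain, as given above. A transcript is called where its adjusted p in limma's test, over all 18414 tested transcripts, is under 0.05. Of the 48, 15 (31.2%) were called, beside 32.6% of all tested transcripts. They were 10 that rose (20.8%, beside 11.7% of all) and 5 that fell (10.4%, beside 20.9%). The median log2 change was -0.05 for the 48 and -0.08 for all. With upper-quartile scaling, 9 of 16 called were higher (56.2%, against 66.7% without it), with quantile normalization 11 of 14 (78.6%) and with equal FPKM sums without LNC_010228 10 of 18 (55.6%). In the same order, 1552, 2535 and 2014 of all tested transcripts were called higher and 4922, 3202 and 4201 lower. With the mapped share as a covariate, 1 of the 48 was called. Over all tested transcripts the balance turned with it, from 2153 higher and 3856 lower to 234 and 69. An unadjusted p under 0.05 was reached by 22 of the 48. Counts by unadjusted p or by fold, here and below, are given without a share over all tested transcripts and only describe the 48.

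LNC_001293 had the smallest p of them. It was at 1.73, 1.70, 2.01, 1.89 and 2.01 FPKM in IMPA and at 6.75, 7.04, 7.18, 7.54 and 6.61 in IMA. The 2 groups lay far apart against their spread, with a log2 change of 1.48 (SE 0.06, limma adjusted p = 1.8e-07). LNC_001541 was at 1.43, 1.48, 1.98, 1.70 and 2.01 FPKM in IMPA and at 6.68, 4.81, 5.20, 7.67 and 7.69 in IMA. Every IMA library was above every IMPA library, and it rose by 1.43 (SE 0.13, limma adjusted p = 4.5e-05). LNC_006984 was at 1.25, 0.742, 0.551, 0.895 and 0.641 FPKM in IMPA and at 2.58, 2.01, 3.49, 2.99 and 3.06 in IMA. Its values did not overlap either, and it rose by 1.08 (limma adjusted p = 2.6e-04).

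These 3, with LNC_006354 and LNC_012326 among those that fell, were the 5 called with a fold of at least 2 on the log2(FPKM + 1) scale. LNC_005709, which is lower in the subcutaneous cells, rose from 1.47 ± 0.176 to 3.48 ± 0.463 FPKM, by 0.85 (limma adjusted p = 1.1e-04). LNC_012326 was at 20.9, 18.8, 25.3, 14.8 and 20 FPKM in IMPA and at 6.94, 15.6, 11.6, 5.22 and 5.61 in IMA. The groups overlapped by IMA 2 alone, which lay above IMPA 4, and LNC_012326 fell by 1.16 (SE 0.27, limma adjusted p = 0.00938). The call was lost with the library-size covariate in an ordinary linear model (adjusted p = 0.127). LNC_009275 lay between 5.27 and 6.16 FPKM in IMPA and between 6.46 and 7.91 in IMA, and rose by 0.28 (limma adjusted p = 0.011), a call that was lost under upper-quartile scaling (limma adjusted p = 0.0867).

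The comparison of SA with SPA asks the same of the subcutaneous cells. Of the 48, 10 (20.8%) were called, beside 25.9% of all tested transcripts, with 7 that rose (14.6%, beside 14.6% of all) and 3 that fell (6.25%, beside 11.3%). The median log2 change was 0.09 for the 48 and 0.00 for all. Under upper-quartile scaling and with equal FPKM sums without LNC_010228, 6 of 11 called were higher (54.5%, against 70.0%). Over all tested transcripts the balance turned, from 2688 higher and 2089 lower to 1821 and 2727 under upper-quartile scaling, to 2099 and 2943 with those equal sums and to 2362 and 2390 under quantile normalization. With the mapped share as a covariate, 1 of the 48 was called, beside 2001 of all 18414 tested transcripts. An unadjusted p under 0.05 was reached by 17.

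LNC_010017 had by far the smallest p and was the only one of the 10 with a fold of at least 2. It was at 10.6, 10.1, 11.2, 13.2 and 10.8 FPKM in SPA and at 23.8, 28.5, 28.3, 27.2 and 26.2 in SA. In the intramuscular cells it was at 21.7, 25.2, 19.0, 18.7 and 19.7 FPKM in IMPA and 19.6, 19.4, 17.9, 15.3 and 20.3 in IMA. SPA was below all other groups, and LNC_010017 rose to SA by 1.19 on the log2 scale (SE 0.07, limma adjusted p = 2.2e-06). Its intramuscular log2 difference was -0.16 (limma adjusted p = 0.225).

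The other 9 called log2 changes lay between -0.50 and 0.60. LNC_004127 was at 0.612, 0.659, 1.18, 1.0 and 1.17 FPKM in SPA and at 1.81, 1.88, 1.45, 2.91 and 1.57 in SA, without overlap, and rose by 0.60 (limma adjusted p = 0.0136). That call was lost when all 4 groups were fitted together (limma adjusted p = 0.13), a fit that takes in its wide intramuscular spread of 0.0146 to 2.36 FPKM. LNC_001293 rose here too, from 0.183 ± 0.0288 to 0.356 ± 0.0517 FPKM, by 0.20 (SE 0.03, limma adjusted p = 0.00151), although both levels were under 1 FPKM. It was the 1 lncRNA of the 48 (2.08%) that was called in the same direction in both stage comparisons, beside 6.26% of all tested transcripts. Its subcutaneous call was lost in an ordinary linear model that held the library size (adjusted p of that model 0.136), which left none of the 48 called the same way in both. The call of LNC_004127 was lost there too (adjusted p of that model 0.0652).

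LNC_006638 and LNC_009366 were called in opposite directions in the 2 stage comparisons, which is 4.17% of the 48, beside 5.75% of all. LNC_009366 was at 1.17, 1.12, 1.10, 1.22 and 1.35 FPKM in IMPA and at 1.77, 1.94, 2.33, 2.11 and 1.70 in IMA. In SPA it was at 0.984, 1.21, 0.891, 0.768 and 0.864 FPKM and in SA at 0.627, 0.650, 0.653, 0.634 and 0.687. It rose by 0.44 in the intramuscular cells (limma adjusted p = 0.00228) and fell by 0.23 in the subcutaneous cells (limma adjusted p = 0.0168), in each case without overlap. The fall was lost with a filter at a mean of 0.1 FPKM, where more transcripts were tested (limma adjusted p = 0.0742), and in an ordinary linear model that held the library size (adjusted p of that model 0.0823).

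For LNC_006638, the values were 0.740, 1.10, 0.614, 0.707 and 0.778 FPKM in IMPA and 1.32, 1.31, 1.12, 1.41 and 1.81 in IMA. In SPA they were 5.54, 6.55, 6.35, 5.68 and 6.09 FPKM and in SA 4.87, 5.33, 5.28, 4.62 and 4.80. It rose by 0.42 (limma adjusted p = 0.00954) in the depot where it was low and fell by 0.24 (limma adjusted p = 0.0202) in the depot where it was high. The subcutaneous call was lost without SPA 2, with a log2 change of -0.21 (limma adjusted p = 0.0501), and without SPA 3, with -0.22 (limma adjusted p = 0.0521). In an ordinary linear model that held the library size, both calls were lost, at 0.34 and -0.12 (adjusted p of that model 0.095 and 0.603). They were lost with the mapped share too, at -0.09, which turns the direction, and -0.15 (limma adjusted p = 0.942 and 0.557).

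The comparison of IMPA with SPA asks how the cells labelled preadipocytes differ between the depots on day 0. Of the 48, 27 (56.2%) were called, beside 50.9% of all tested transcripts. They were 18 higher in IMPA (37.5%, beside 29.3% of all) and 9 lower (18.8%, beside 21.6%). The median log2 difference was 0.18 for the 48 and 0.06 for all. Under quantile normalization 13 of 25 called were higher (52.0%, against 66.7%), and over all tested transcripts 4518 were higher and 4959 lower, against 5392 and 3972. Upper-quartile scaling moved the median of all tested transcripts from 0.06 to 0.18 in this comparison, and from -0.09 to 0.03 in that of IMA with SA. Of the 27, 10 had a fold of at least 2, and an unadjusted p under 0.05 was reached by 29. Neither count has a share over all tested transcripts beside it, so both only describe the 48.

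The comparison of IMA with SA asks how the cells labelled adipocytes differ between the depots on day 3. Here 21 of the 48 (43.8%) were called, beside 46.3% of all tested transcripts, 10 higher in IMA (20.8%, beside 19.3% of all) and 11 lower (22.9%, beside 27.1%). The median log2 difference was -0.09 both for the 48 and for all. Under upper-quartile scaling 11 of 22 called were higher, and the balance over all turned from 3549 higher and 4982 lower to 4354 and 3382. A fold of at least 2 was found for 11 of the 21, and the called log2 differences ran from -1.68 to 2.87. An unadjusted p under 0.05 was reached by 24 of the 48. For these counts too, no share over all tested transcripts is given.

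A lncRNA was taken as restricted to a depot where its mean was at least 1 FPKM in a group of that depot and under 0.1 FPKM in both groups of the other. LNC_001541 and LNC_002510 met this for the intramuscular cells, which is 4.17% of the 48, beside 1.93% of all tested transcripts. None of the 48 met it for the subcutaneous cells, beside 0.196% of all. LNC_001541 and LNC_002510 reached the mean of 1 FPKM that chose them through the intramuscular groups alone. Their share and their p-values between the depots are therefore given as a description only, not as evidence of restriction. LNC_001541 was listed at 0 in 4 SPA libraries and in all 5 SA libraries, and SPA 3 had 0.00214 FPKM, while all 10 intramuscular libraries were at 1.43 FPKM or more. No fold is given against a group listed at 0, and the differences on the log2(FPKM + 1) scale, 1.44 on day 0 and 2.87 on day 3 (limma adjusted p = 2.7e-07 and 2.5e-08), depend on the 1 that was added.

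LNC_002510 was at 2.83, 2.79, 3.49, 2.29 and 3.37 FPKM in IMPA and at 3.30, 3.78, 4.71, 2.07 and 2.86 in IMA. It was listed at 0 in SPA 1 to SPA 4 and in SA 2, SA 4 and SA 5, with 0.0316 FPKM in SPA 5, 0.148 in SA 1 and 0.0793 in SA 3. The depots did not overlap, with log2(FPKM + 1) differences of 1.97 on day 0 and 2.03 on day 3 (limma adjusted p = 5.4e-08 and 2.1e-06). Unlike LNC_001541, it was called in neither stage comparison. With a limit of 0.5 FPKM for the other depot in place of 0.1, 8 were restricted, 6 of them intramuscular and 2 subcutaneous, and without SA 5 the main limit gave 3. None of the 48 was at 0 in all 10 libraries of a depot.

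Those called in the same direction with a fold of at least 2 on both days were taken as biased to a depot. Like the restricted ones, LNC_001293 and LNC_009530 reached the mean of 1 FPKM only through the depot where they are high, so their p-values between the depots only describe them. There were 4 for the intramuscular cells (8.33%, beside 5.57% of all tested transcripts), namely LNC_001541, LNC_002510, LNC_001293 and LNC_012326. LNC_001293 was at 0.135, 0.207, 0.179, 0.20 and 0.194 FPKM in SPA and at 0.386, 0.360, 0.327, 0.287 and 0.421 in SA. All these values lie below the lowest intramuscular one, 1.70 FPKM, with log2 differences of 1.28 on day 0 and 2.56 on day 3 (limma adjusted p = 1.4e-07 and 4.2e-10). LNC_012326 was at 1.99, 2.1, 5.31, 7.72 and 7.11 FPKM in SPA and at 1.94, 2.20, 1.58, 2.40 and 2.81 in SA. Its IMPA values were all above its SPA values and its IMA values all above its SA values, with log2 differences of 1.97 and 1.55 (limma adjusted p = 5.3e-04 and 8.0e-04).

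Biased to the subcutaneous cells were 3 (6.25%, beside 2.88% of all tested transcripts), namely LNC_011136, LNC_006638 and LNC_009530. LNC_011136 was at 0.874, 0.664, 0.465, 1.12 and 0.299 FPKM in IMPA, 2.08, 1.32, 1.77, 1.79 and 1.07 in IMA, 5.78, 7.58, 5.54, 4.82 and 6.81 in SPA and 6.56, 7.13, 9.27, 6.53 and 7.13 in SA. The depots were apart in every library, by log2 differences of -2.09 on day 0 and -1.68 on day 3 (limma adjusted p = 1.3e-06 and 1.9e-06). LNC_009530 was at 0.202, 0.348, 0.245, 0.338 and 0.416 FPKM in IMPA, 0.214, 0.149, 0.0744, 0.0997 and 0.191 in IMA, 3.09, 2.60, 2.63, 2.17 and 2.68 in SPA and 2.36, 2.88, 3.16, 2.82 and 1.82 in SA. No intramuscular value reached the lowest subcutaneous one, and the log2 differences were -1.47 and -1.64 (limma adjusted p = 2.7e-07 and 1.2e-06). LNC_006638, with the values given above, had log2 differences of -1.98 and -1.33 (limma adjusted p = 2.1e-08 and 5.3e-07).

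**Figure D3:**
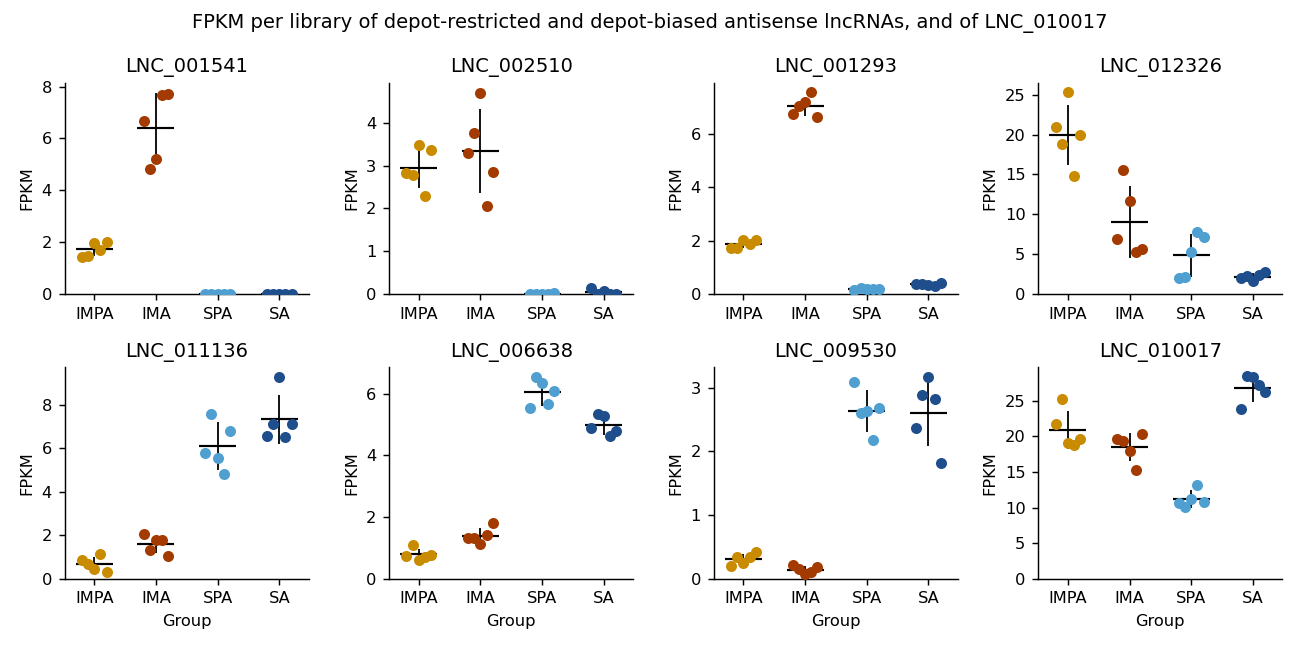
FPKM of LNC_001541, LNC_002510, LNC_001293, LNC_012326, LNC_011136, LNC_006638, LNC_009530 and LNC_010017 in the groups IMPA, IMA, SPA and SA, 1 panel each, with 1 point per library, a line at the group mean and a bar of 1 SD. LNC_001541 and LNC_002510 lie at or near 0 in all subcutaneous libraries, and the SPA libraries are the lowest for LNC_010017.

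Other differences between the depots were smaller than 2-fold on at least 1 day or were called on 1 day only. LNC_005709 was at 1.43, 1.25, 1.62, 1.37 and 1.68 FPKM in IMPA and at 3.23, 4.07, 3.69, 2.85 and 3.54 in IMA. It lay between 0.117 and 0.516 FPKM in SPA and between 0.0509 and 0.338 in SA, so it too was chosen through its intramuscular values. The groups of the 2 depots did not overlap, and the log2 differences were 0.92 on day 0 and 1.97 on day 3 (limma adjusted p = 3.7e-05 and 1.7e-07). LNC_006984 was higher in IMPA than in SPA by 0.49 (limma adjusted p = 0.00482), a difference that quantile normalization brought to 0.09 (limma adjusted p = 0.635), and higher in IMA than in SA by 1.49 (limma adjusted p = 6.7e-06). LNC_010017 changed sides between the days, above SPA in IMPA by 0.84 (limma adjusted p = 2.7e-05) and below SA in IMA with a log2 difference of -0.51 (limma adjusted p = 3.4e-04). LNC_012327 was higher in IMPA than in SPA by 0.62 (limma adjusted p = 0.0299), a call that was lost without any 1 of IMPA 3, IMPA 4, SPA 2, SPA 3 and SPA 4 (limma adjusted p of 0.0585 to 0.0656). With the mapped share as a covariate its direction turned, to -1.22 (limma adjusted p = 0.45). LNC_009275 was slightly higher in the intramuscular cells on both days, by 0.22 and 0.35 (limma adjusted p = 0.0424 and 0.0119), and the call on day 0 was lost without any 1 of IMPA 1, IMPA 2, IMPA 3, IMPA 5, SPA 1, SPA 4 and SPA 5 (limma adjusted p of 0.0676 to 0.0935).

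The interaction tests whether the change from day 0 to day 3 differs between the depots, as the intramuscular minus the subcutaneous log2 change over all 20 libraries. Of the 48, 15 (31.2%) were called, beside 31% of all tested transcripts, 10 with a more positive intramuscular change (20.8%, beside 11.2% of all) and 5 with a more negative one (10.4%, beside 19.8%). The median over the 48 was -0.19 and over all -0.09, and 19 reached an unadjusted p under 0.05. The interaction shares its libraries with the pairwise comparisons, so its calls are not further evidence for theirs.

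The smallest p was that of LNC_001293, with a difference of 1.29 between its changes of 1.48 and 0.20 (limma adjusted p = 9.3e-10). LNC_010017 followed on the other side, with -1.36 (SE 0.12, limma adjusted p = 9.3e-08). For LNC_001541 the difference was 1.43 (limma adjusted p = 4.8e-07), which is all intramuscular since the subcutaneous values were at or near 0. LNC_005709 and LNC_006984 differed by 1.05 and 1.00 (limma adjusted p = 1.9e-05 and 1.9e-04), and LNC_009366 and LNC_006638 by 0.67 and 0.66 (limma adjusted p = 7.5e-05 and 2.0e-04). LNC_006354 had the largest difference, -2.16, and also a large error (SE 0.61, limma adjusted p = 0.011). LNC_008033, which stayed between 0.782 and 1.26 FPKM in all 20 libraries, was called at 0.24 (limma adjusted p = 0.0453), and under upper-quartile scaling was not (limma adjusted p = 0.0894). That call was lost without any 1 library other than IMPA 1, IMPA 2, SPA 1 and SA 2 (limma adjusted p of 0.0506 to 0.0861).

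**Figure D4:**
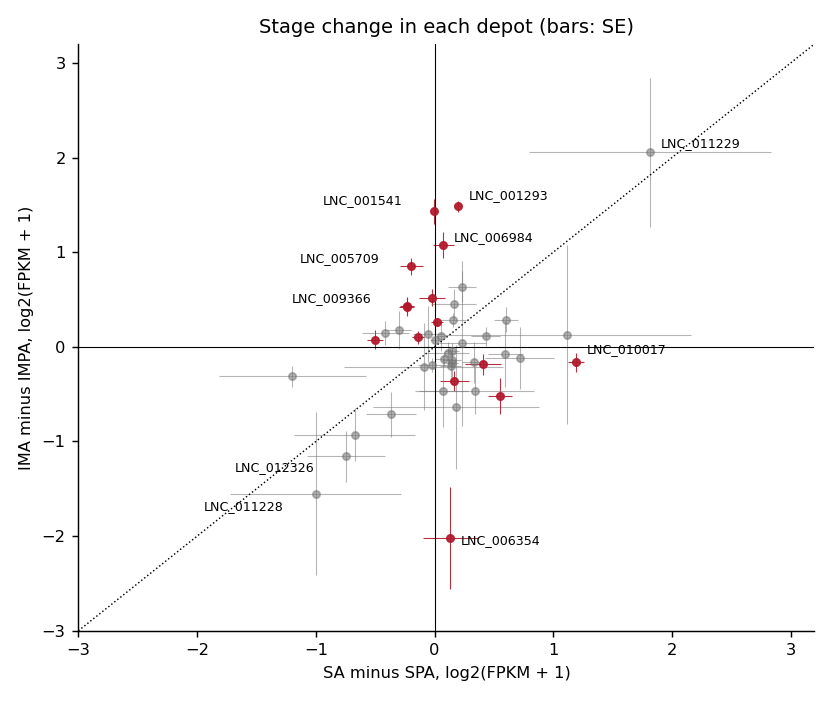
log2 change of FPKM + 1 from SPA to SA (horizontal) and from IMPA to IMA (vertical) for 47 antisense lncRNAs, all but LNC_010228, with bars of 1 SE, the dotted line where both changes are equal, and in red the 15 called in the interaction. LNC_001293 and LNC_001541 lie high above the line, and LNC_010017 and LNC_006354 below it.

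The same tests applied to the other classes give the setting of these counts. Of 1080 intronic lncRNAs, 23.0% were called from IMPA to IMA, 28.0% from SPA to SA, 53.3% between IMPA and SPA and 37.2% between IMA and SA. Their median log2 changes were -0.13, 0.22, 0.25 and -0.18, beside -0.05, 0.09, 0.18 and -0.09 for the 48 antisense lncRNAs. In the same order, 28.7%, 19.4%, 57.4% and 46.3% of 108 lincRNAs were called, with medians of -0.08, 0.10, 0.21 and -0.08. Of 360 annotated lncRNAs, 30.3%, 21.7%, 46.7% and 43.9% were called, with medians of 0.05, 0.00, -0.08 and -0.05. The antisense medians have the sign of the intronic and lincRNA medians in each comparison, but of the annotated one only between IMA and SA. No test of a difference between classes was made.

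Several antisense lncRNAs are 1 of several transcripts of a gene ID, among which the assembly and StringTie divide the reads. Of the 45 gene IDs, 27 had a single transcript and 18 had several, with 99 transcripts in all and 13 at most. Both XLOC_138491 and XLOC_153769 held more than 1 of the 48.

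In XLOC_138491, the transcript that carried the signal differed from library to library. LNC_011229 was at 10.6, 7.55, 13.9, 0.00353 and 0 FPKM in IMPA, 16.6, 16.6, 18.2, 15.0 and 18.4 in IMA, 0.00309, 13.9, 2.85, 0.00324 and 0.00237 in SPA and 7.33, 10.7, 0.00345, 16.5 and 17.4 in SA. LNC_011228 was at 0.0824, 0, 0.214, 4.85 and 27.0 FPKM in IMPA and listed at 0 in all of IMA, and it was at 5.71, 0, 8.57, 3.70 and 5.39 in SPA and 2.52, 1.66, 5.45, 0 and 0 in SA. LNC_011231 was at 0.569, 2.34, 1.58, 0.856 and 0 FPKM in IMPA, listed at 0 in all of IMA, and at 2.50, 0, 4.30, 1.88 and 2.33 in SPA and 1.03, 2.94, 1.17, 0 and 0 in SA. In the 6 libraries where LNC_011229 was at or near 0, LNC_011228 was at 3.70 FPKM or more, and in IMA LNC_011229 held the whole FPKM of the gene ID, against 44.0% in IMPA, 32.6% in SPA and 77.9% in SA.

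Summed over its 4 transcripts, XLOC_138491 was at 14.6 ± 7.90 FPKM in IMPA, 16.9 ± 1.41 in IMA, 10.2 ± 4.37 in SPA and 13.3 ± 4.51 in SA. The sum was called in none of the comparisons, with a log2 change of 0.35 between IMA and IMPA (limma adjusted p = 0.311) and 0.37 between SA and SPA (limma adjusted p = 0.318). Of the 3 transcripts, LNC_011231 was called between IMA and IMPA, at -0.93 (limma adjusted p = 0.0278). This call was lost without IMPA 3 (-0.82, limma adjusted p = 0.0649) and without any 1 of IMPA 4, IMA 1, IMA 2, IMA 4 and IMA 5 (limma adjusted p of 0.0503 to 0.0531).

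In XLOC_153769, LNC_012448 was at 126, 3.40, 121, 105 and 116 FPKM in IMPA, 64.1, 61.9, 70.0, 64.1 and 49.5 in IMA, 41.5, 60.0, 44.1, 66.7 and 56.8 in SPA and 68.5, 73.7, 69.4, 69.8 and 38.9 in SA. LNC_012450 was at 9.16 FPKM in IMPA 2, 14.9 in IMA 5 and 47.2 in SA 5 and listed at 0 in the other 17 libraries, so that SA 5 alone held 66.2% of its summed FPKM. IMA 5 and SA 5 were thus the lowest libraries of their groups for LNC_012448, as was IMPA 2. Summed with LNC_012449, which was at 11.2 FPKM in SPA 5 and at 0 elsewhere, the gene ID was at 96.0 ± 47.3 FPKM in IMPA, 64.9 ± 3.04 in IMA, 56.0 ± 12.5 in SPA and 73.5 ± 7.32 in SA. In IMPA 2 the sum was still the lowest of all, at 12.6 FPKM. The sum rose from SPA to SA by 0.41 (limma adjusted p = 0.0268), while LNC_012448 alone was not called.

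**Figure D5:**
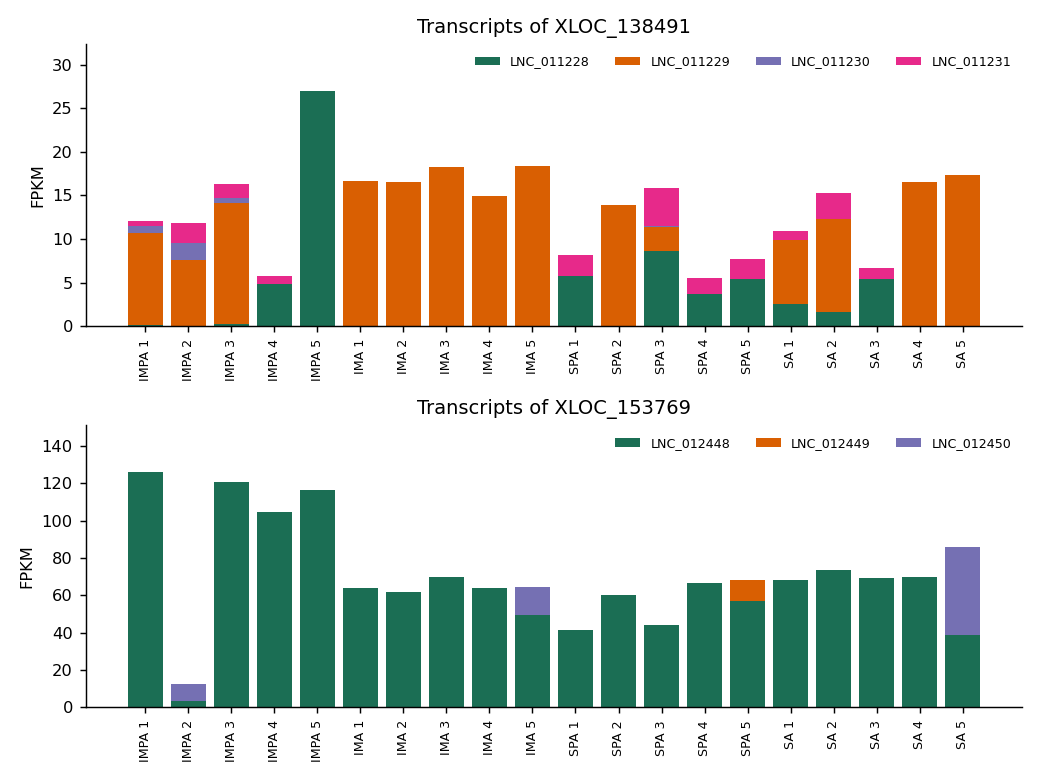
FPKM per library of the transcripts of XLOC_138491 and of XLOC_153769, stacked to the sum of the gene ID, for the 20 libraries in the groups IMPA, IMA, SPA and SA. LNC_011229 makes up the whole bar in all 5 IMA libraries, and LNC_012450 appears in IMPA 2, IMA 5 and SA 5.

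Summing the FPKM per gene ID before the test, an alternative chosen after the data had been seen, changed the calls of several of these 18 gene IDs. Between IMA and IMPA, 5 had a called antisense lncRNA and 10 a called sum, 4 of them both. Between SA and SPA the numbers were 5, 9 and 5, between IMPA and SPA 11, 13 and 10, and between IMA and SA 9, 13 and 8. Of all 13256 gene IDs tested as sums, 7515, 6661, 9768 and 9204 were called in these 4 comparisons. For the restricted LNC_001541, the sum of XLOC_019758 was at 1.95 ± 0.177, 7.37 ± 0.475, 0.190 ± 0.125 and 0.120 ± 0.130 FPKM in IMPA, IMA, SPA and SA. The other 2 transcripts of its gene ID were thus seen in subcutaneous libraries, at low levels. XLOC_133987, chosen after its values were seen, has 10 transcripts, of which LNC_010879 is 1 of the 48. LNC_010879 was at 4.79, 4.88, 5.57, 5.35 and 0.273 FPKM in SPA and at 0.0897, 3.13, 3.74, 0.176 and 0.136 in SA, whereas the sum was 10.1 ± 0.466 FPKM in SPA and 7.15 ± 0.344 in SA. The sum was 0.951 ± 0.110 FPKM in IMPA and 0.784 ± 0.178 in IMA, with log2 differences between the depots of -2.50 on day 0 and -2.20 on day 3 (limma adjusted p = 7.0e-13 and 7.5e-12).

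Without coordinates, the genes that lie across from these lncRNAs cannot be told from the tables, and genes are given only where the study lists them as co-located with 1 of the lncRNAs named here. For LNC_001293 it lists 5 genes. ACOT11, an acyl-CoA thioesterase, which releases fatty acids from coenzyme A, was at 0.790 ± 0.133 FPKM in IMPA, 2.59 ± 0.301 in IMA, 0.0501 ± 0.0425 in SPA and 0.124 ± 0.0426 in SA. Its order of groups is that of LNC_001293, and its mean under 1 FPKM kept it from the test. TTC4 was at 11.2 ± 0.444, 9.44 ± 0.372, 11.3 ± 0.406 and 10.4 ± 0.982 FPKM, and MROH7, FAM151A and LOC102188768 were under 0.2 FPKM in every group.

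For LNC_010017 the study lists 18 genes. The mean was higher in SA than in SPA for 16 of them and higher in IMA than in IMPA for 2, with no share over all transcripts given beside this tally. SLC17A2 and LOC102185617 were among the 16 but under 1 FPKM in all groups, and LOC102185617 was also 1 of the 2. LOC102181083 was at 35.9 ± 4.88, 33.7 ± 2.60, 11.3 ± 1.41 and 98.4 ± 10.6 FPKM in IMPA, IMA, SPA and SA, and LOC102186918 at 11.7 ± 1.92, 7.89 ± 0.507, 5.02 ± 0.470 and 21.5 ± 1.51. TRIM38, a ubiquitin ligase of innate immunity, was at 13.7 ± 1.06, 9.14 ± 0.857, 19.5 ± 1.06 and 18.3 ± 0.977 FPKM, and HFE, a regulator of iron uptake, at 6.58 ± 0.505, 4.97 ± 0.186, 8.35 ± 0.265 and 7.69 ± 1.08. These 2 were the genes lower on average in SA than in SPA. The proliferation sum given above has the same order of group means as LNC_010017, from SA over IMPA and IMA to SPA. Its part was not tested. Of the 2 genes listed for LNC_012326, LOC108634769 was at 1407 ± 354, 1039 ± 221, 683 ± 239 and 954 ± 377 FPKM and LOC108634770 at 17.6 ± 1.29, 14.3 ± 1.84, 10.7 ± 1.08 and 14.7 ± 0.783. No test was made of these neighbours, which the study listed by position.

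Genes that act on antisense and duplex RNA were described as a list of 49 symbols, of which 45 were found by symbol and 44 tested, each by its most abundant transcript. INTS11, DGCR8 and AGO4 were not found. The list holds 1 gene under 2 symbols, MTREX and the older SKIV2L2, and it was found under the latter. Between IMA and IMPA, 23 of the 44 fell and none rose, beside 20.9% and 11.7% of all tested transcripts (median log2 change -0.26, beside -0.08 over all tested transcripts). Among them, the exosome subunits EXOSC10, its nuclear nuclease, and EXOSC6 fell from 16.7 ± 0.834 to 12.2 ± 0.583 and from 11.4 ± 1.34 to 6.76 ± 0.495 FPKM (-0.42 and -0.67, limma adjusted p = 1.3e-04 and 2.5e-04). NRDE2, a cofactor of nuclear RNA decay, fell from 3.62 ± 0.204 to 1.79 ± 0.222 FPKM (-0.73, limma adjusted p = 7.6e-05).

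In the subcutaneous cells, 9 of the 44 were called (20.5%, beside 25.9% of all tested transcripts), 2 that rose and 7 that fell, beside 14.6% and 11.3%. The median was -0.02, beside 0.00 over all. With the mapped share as a covariate the balance turned, to 5 that rose and 3 that fell. DDX58, the RNA sensor RIG-I, fell from 6.25 ± 0.548 to 1.99 ± 0.284 FPKM (-1.28, limma adjusted p = 5.2e-06), and EIF2AK2, the kinase PKR that binds double-stranded RNA, from 35.7 ± 1.35 to 21.3 ± 1.73 (-0.72, limma adjusted p = 7.4e-06). ILF2, which binds RNA, rose from 36.5 ± 2.25 to 57.9 ± 4.27 FPKM (0.65, limma adjusted p = 2.4e-05).

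Between the depots, 20 of the 44 were called on day 0 (45.5%, beside 50.9% of all tested transcripts), 11 higher and 9 lower in IMPA, beside 29.3% and 21.6% of all. They were 22 on day 3 (50%, beside 46.3%), 4 higher and 18 lower in IMA, beside 19.3% and 27.1% of all. These balances moved with scalings and covariates that were chosen for this list after the data had been seen. Under upper-quartile scaling 19 were higher and 5 lower on day 0, and 7 higher and 13 lower on day 3. Under quantile normalization 9 were higher and 12 lower on day 0, and with equal FPKM sums without LNC_010228 9 and 11. On day 0, ILF2 (1.23), AGO2 (0.28) and DICER1 (0.60), the latter pair acting in RNA interference, were higher in IMPA and EIF2AK2 (-0.80) was lower, as log2 differences. On day 3, DIS3 (-0.56) and EXOSC2 (-0.38) of the exosome, and EIF2AK2 (-0.62) and the RNA sensor IFIH1 (-0.74), were lower in IMA. Of these genes, 15 (34.1%, beside 31% of all tested transcripts) were called in the interaction, all with a more negative intramuscular change, beside 19.8% of all, but 12 of 14 under quantile normalization, 12 of 13 with those equal sums and 15 of 17 with the library size. The numbers called once the mapped share was a covariate were 1 between IMA and IMPA, 0 on day 0, 15 on day 3 and 2 in the interaction. In the subcutaneous cells they were 8, with 5 higher and 3 lower. No link between these genes and the antisense lncRNAs was tested.

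With the mapped share as a covariate, 1 of the 48 was called in each stage comparison, 2 between IMPA and SPA, 14 between IMA and SA and 6 in the interaction, and over all tested transcripts the called numbers were 303, 2001, 1344, 5144 and 1283. Of the 7 biased to a depot, only LNC_006638 kept its call on day 0, and all but LNC_012326 kept theirs on day 3. On day 0 the log2 differences became 0.94 for LNC_001541, 1.33 for LNC_002510, 1.03 for LNC_001293 and 1.67 for LNC_012326 (limma adjusted p = 0.182, 0.0791, 0.0879 and 0.652). Those of LNC_009530 and LNC_011136 became -1.47 and -1.20 (limma adjusted p = 0.069 and 0.392). Because this share separates both the stages and the depots fully, its part in these differences cannot be told apart from theirs. In an ordinary linear model that held the library size, 1283 of all tested transcripts were called between SA and SPA. That model and the limma fit with the mapped share differ in the handling of the variance as well as in the covariate. Their counts therefore cannot be compared as effects of the covariate.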

How the data were processed

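The authors mapped paired reads of 20 strand-specific libraries to the goat genome ARS1 with HISAT2 2.0.4 and deposited FPKM per transcript, computed with StringTie 1.3.1. Tested were transcripts that averaged 1 FPKM or more, on log2(FPKM + 1), with a pseudocount of 1, by limma 3.58.1 (variance trend) in R 4.3.3. Each pairwise comparison used its 10 libraries and the interaction all 20. The Benjamini-Hochberg adjustment ran over 18414 transcripts, and all tests were two-sided. Shares were compared by exact permutation over 252 divisions of the libraries (Python 3.11.15, scipy 1.17.1, numpy 2.4.6, pandas 2.3.3, matplotlib 3.10.9). The members and lists were chosen with earlier results of these data known.

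Named were the 10 lncRNAs with the highest mean, up to 6 called per pairwise comparison with the smallest p, a fold of at least 2 and no overlap, those restricted to a depot, called in opposite directions or sharing a gene ID, the 3 nearest the threshold on each side, and those with over 50% of their FPKM in 1 library. From the RNA turnover list, up to 4 per comparison were named. The values of 1 gene of that list are not reported here.

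Alternatives were filters at 0.1 FPKM and none, a pseudocount of 0.1, upper-quartile, quantile and equal-sum scaling, no variance trend, Ballgown's library-size covariate in an ordinary linear model, all 4 groups in 1 fit, the mapped share as a covariate, a block for the replicate number, other FPKM sums and restriction limits, and omission of each library or of SPA 1 and SA 5, which lost few reads in filtering. FPKM summed per gene ID was chosen after the data had been seen. The steps were tested on simulated data. The miRNA and qPCR measurements were left out as outside the lncRNA tables.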

Additional observations from a re-analysis of the deposited data

Results flagged for a closer look

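Single libraries far from the other 4 of their group were looked for in 108 groups of 5 values by Dixon's test, which chance passes in about 1 in 20 groups of independent, spread-out values. It was passed 20 times, a number that cannot be held against chance. In 5 of the 20 the other 4 values were 0, so that any value above 0 passes, and 3 more repeat LNC_006354 through a sum that it leads. All 5 values were equal in 4 of the 108 groups, which cannot pass. Of the 20, 5 were passed by SA 5, 4 by SPA 5, 3 by IMA 1 and 2 by IMPA 2. LNC_006354 was high in IMA 1 (778 FPKM), SPA 5 (1332) and SA 5 (1429), and LNC_007714 was high in the same libraries, at 2.67, 4.90 and 6.37 FPKM. With LNC_006354, the share of all antisense lncRNAs other than LNC_010228 was high there too, at 0.339%, 0.490% and 0.519%. LNC_012448 was low in IMPA 2 (3.40 FPKM) and SA 5 (38.9), and LNC_012450, which shares its gene ID, was high in IMPA 2 (9.16), IMA 5 (14.9) and SA 5 (47.2). LNC_010228 was low in SA 1, at 128803 FPKM. LNC_011229 was high in SPA 2 (13.9 FPKM) and LNC_011228, of the same gene ID, in IMPA 5 (27.0). LNC_011136 was high in SA 3, at 9.27 FPKM. The libraries SPA 3 for LNC_001541 (0.00214 FPKM) and SPA 5 for LNC_002510 (0.0316) were the only ones of their group above 0.

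The change from day 0 to day 3 differed between the depots by limma's interaction test for 10 of the 25 named lncRNAs. Some of the 25 were named for their changes, so this is no share of the whole: 15 of the 48 (31.2%) were called, beside 31% of all tested transcripts. The intramuscular minus the subcutaneous log2 change was -2.16 for LNC_006354, -1.36 for LNC_010017, 0.24 for LNC_006486 and 0.24 for LNC_008033. It was 0.66 for LNC_006638, 0.67 for LNC_009366, 1.00 for LNC_006984, 1.05 for LNC_005709, 1.29 for LNC_001293 and 1.43 for LNC_001541.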

How the results depend on the processing

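Counted over both directions, the numbers of called antisense lncRNAs stayed within 1.5-fold of those in the report under every alternative but the ones named here. Counts of a single direction moved further in some, as given above for those that fell between IMA and IMPA. With the library-size covariate in an ordinary linear model, 9 were called between IMA and IMPA and 2 between SA and SPA, beside 3743 and 1283 of all 18414 tested transcripts. With the mapped share as a covariate, 1, 1 and 2 were called between IMA and IMPA, SA and SPA, and IMPA and SPA, and 6 in the interaction. In the same order, 303, 2001, 1344 and 1283 of all tested transcripts were called with it. That covariate also turned the sign of LNC_006354 between IMA and IMPA (0.05), of LNC_006638 between IMA and IMPA (-0.09) and of LNC_012327 between IMPA and SPA (-1.22). The cause was not tested. Of the 44 tested genes that act on antisense and duplex RNA, 1, 0 and 2 were called with it between IMA and IMPA, IMPA and SPA, and in the interaction, and 4 between SA and SPA with the library-size covariate. Restriction to a depot held for 8 with a limit of 0.5 FPKM and for 0 where all 10 libraries of the other depot had to be at 0. Without 1 library the restricted number was 2 to 3.

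The shares sit close to the threshold. Relative to lncRNA FPKM alone, LNC_010228 differed by -1.94 points between IMA and IMPA (no longer past the threshold), -2.67 between IMPA and SPA and -3.19 between IMA and SA (both now past the threshold), and the other antisense lncRNAs by 5.72 between IMPA and SPA (no longer past it). Without SPA 1 and SA 5, the latter differed by 0.51 between IMPA and SPA and by -0.0574 between IMA and SA, neither past it. Without 1 library, the LNC_010228 difference between IMA and IMPA was -6.05 to -4.32 points and kept an adjusted p under 0.05 only without IMPA 1 or IMA 1, and between IMA and SA it was -5.09 to -3.35. For the other antisense lncRNAs it was -0.732 to -0.312 between IMA and IMPA and 0.231 to 0.651 between IMPA and SPA, both past the threshold only without IMPA 1 or IMPA 4, and -0.106 to -0.0574 between IMA and SA, past it only without IMA 1, SA 1 or SA 2.

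Replicate numbers are not tied to animals in the sources. Over 20 pairs of same-numbered libraries, the correlation of deviations ran from -0.0411 to 0.0591. With the replicate number as a block, 12, 11, 26, 18 and 14 were called in the 5 tests. By an exact sign-flip test on the shares, whose smallest p is 0.0625, the differences of -4.9 for LNC_010228 and of -0.599, 0.517 and -0.0926 for the others had an adjusted p of 0.167.

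Of 56 called values of the named lncRNAs, 51 of 660 fits without 1 library and 85 of 649 other alternatives lost the call, 37 of the latter with the mapped share. No counts were at hand, so the depth behind low values is unknown.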
